A study of Homo sapiens with 6 samples.

Results

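The proteins that move cargo between membrane compartments were followed here through the transcripts of Huh7, a human liver cancer cell line. Members were chosen by gene symbol: Rab and ARF small GTPases, their regulators and effectors, coat and adaptor subunits, tethers, SNARE proteins, sorting nexins, VPS proteins, ESCRT subunits, the SEC proteins and the TMED cargo receptors. The symbol rule holds no measured value, but it was set with earlier results of these data known. It gave 175 transcript rows of 168 genes, out of 10191 rows of 9717 symbols in the table. Among the members, 156 rows had enough reads to be tested. Of the 175 rows, 161 were coding and 14 were non-coding RNAs that carry a member's name, such as antisense RNAs and pseudogenes. The match by symbol also took in the SEC61 translocon, whose products insert proteins into the endoplasmic reticulum, and EXOC3-like genes, which are relatives and not subunits of the exocyst.

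Libraries of total RNA in 2 groups were compared, 3 in each. One group, scrambled, carried a scrambled short hairpin RNA, and the other, knockdown, one that targets ABL1, which encodes a cytoplasmic and nuclear tyrosine kinase. All cells had been through puromycin selection and were taken 1 week later. The hairpin sequences, how many hairpins were used, whether the cells were a pool or a clone, and whether libraries of a group came from separate cultures were not given in the sources used here. Accordingly, p-values reflect only how much these libraries vary, which may be technical variation.

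Vesicle traffic runs on a shared cycle. A small GTPase of the Rab or ARF family is loaded with GTP by an exchange factor at a particular membrane, recruits coats, motors and tethers there, and is switched off by a GTPase-activating protein, which for most Rabs carries a TBC domain. Coats (COPII out of the endoplasmic reticulum, COPI back to it, clathrin adaptors at the Golgi and endosomes) shape the vesicle, tethering complexes catch it, and SNARE proteins fuse it with its target. Endosomes sort what arrives: retromer and sorting nexins return receptors, and the ESCRT machinery folds ubiquitin-marked cargo into the lysosomal path. In hepatocytes these routes carry the secreted plasma proteins outward and the receptors for lipoproteins, iron and asialoglycoproteins inward and back.

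Recovered read totals were 6651413 to 10487862 per library. Values below are normalized counts, which are reads per transcript row on the scale the authors gave each library, with means ± SD over n = 3. Values of single libraries are in the order of replicates 1 to 3, and those joined by "against" are scrambled first and knockdown second. A number in brackets before an adjusted p is a log2 change, knockdown minus scrambled, and one after a left-out replicate is limma's adjusted p without it. The more abundant ABL1 transcript (NM_007313) had 73.4, 71.7 and 71.3 against 13.7, 10.2 and 9.28 normalized counts and fell (log2 change -2.62, limma adjusted p = 4.11e-06) and the other one (NM_005157) had 9.17, 6.72 and 10.3 against 17.6, 19.2 and 24.8 and rose (1.15, adjusted p = 0.01795). Hepatocyte markers were abundant, with 7 of 9 in the table and summed normalized counts of 506563 to 568695 in the scrambled and 440919 to 486646 in the knockdown libraries. Fibroblast and stellate markers (6 of 8 in the table) summed to 8912 to 9908 and 13259 to 14609. Biliary markers (4 of 5) summed to 8250.2 to 9483 and 5690 to 6159. Immune markers (3 of 7) summed to 5714 to 6331 and 6544 to 7489. Endothelial markers (4 of 5) summed to 176 to 204 and 125 to 147. None of those with a row was at 0 in all libraries. These sums are levels in bulk RNA of the Huh7 line and do not count cells of other types. The part of these markers in the results below was not tested. In bulk RNA fewer cells that express a marker and less of its RNA per cell cannot be told apart.

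The traffic transcripts moved in both directions. Of 156 tested, 47 rose and 38 fell in the knockdown libraries by limma's moderated test (two-sided, Benjamini-Hochberg adjusted p under 0.05 over all 8600 rows tested). That is 54.5% of the members, where 51.9% of all tested rows were called, so the share is close to the background. Rises made up 30.1% of the members against 24.5% of all rows, and falls 24.4% against 27.4%. The median log2 change was 0.13 for the members and 0.00181 for all rows. The changes were also of moderate size: 19 members (12.2%) were called and changed at least 2-fold (9 rose, 10 fell), where 16.9% of all rows did. Groups did not overlap for 100 members (64.1%), where 58.9% of all rows had groups apart. The members were the better counted rows, with a median of 499 normalized counts against 191 for all tested rows.

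The balance of rises and falls depended on the scaling. Normalized totals were 7517864 to 7779025 in knockdown and 8573339 to 8744039.6 in scrambled libraries. Rises were 55.3% of the called members with the authors' scale factors (and 47.2% of all called rows). With libraries scaled to equal totals they were 76.3% of the called members (74 rose, 23 fell) and 63.6% of all called rows. Equal totals moved the median of all rows to 0.17. No called member changed sign under any scaling. All 47 rises passed under each of 3 other scalings, and of the 38 falls 23 did. Each of the 3 moved the median of all rows upward from 0.00181. It was 0.0141 with median-of-ratios scaling, 0.0354 with quantile normalization and 0.17 with equal totals. The rises were thus not tried against a downward shift, and their passing is no sign that they are firmer than the falls. The falls that some scaling ended were those of COPG1, VPS25, VPS4B, RAB36, RAB3D, RAB6B, RABIF, RIN3, SNAP47, TRAPPC2L, VAMP5, EXOC5, SNAP25-AS1, SNX32 and SNX24. Fitting without the mean-variance trend ended 14 calls, among them those of COPG1, SEC63, VPS4B, VPS4A, TBC1D10B, TBC1D12, RAB1A, SNAP47, TMED9, TRAPPC12, EXOC5, EXOC4 and SNX8. Equal totals also added 27 rises among members that did not pass: COPG2, SEC24A, SEC23A, SEC22A, VPS37C, CHMP4A, VPS18, VPS16, TBC1D8B, RAB22A, RAB14, RAB12, RAB27B, RAB17, RAB3GAP2, TMED2, TMED10, TRAPPC8, VAMP8, VAMP3, AP5Z1, AP5B1, EXOC3, EXOC3L4, EXOC6B, STX18-AS1 and SNX5. With quantile normalization 13 were added, of which 1 (TBC1D30) was a fall. Of the 85 calls, 36 rises and 25 falls kept their call whichever library was left out.

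**Figure D1:**
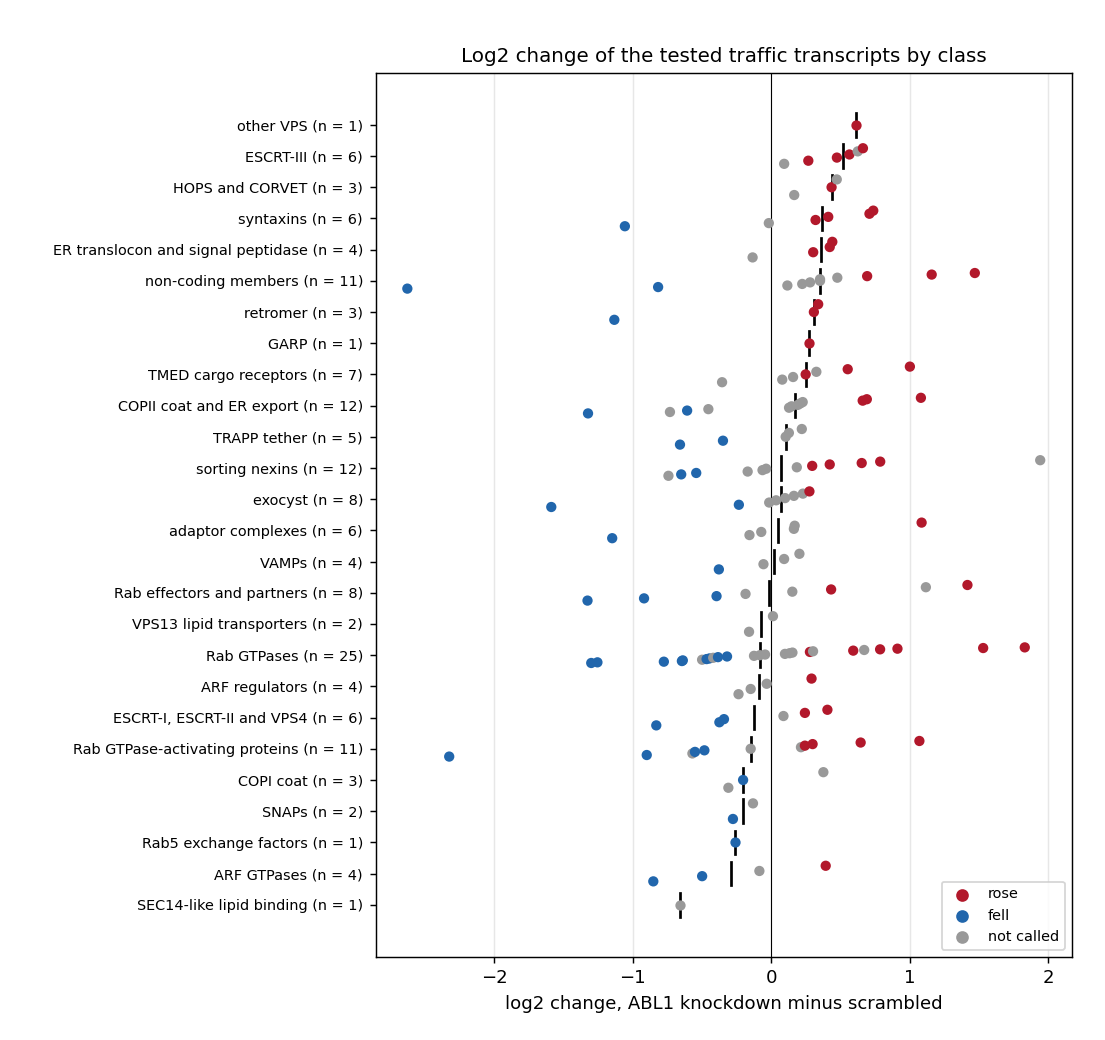
Log2 change (horizontal axis, knockdown minus scrambled) of each of the 156 tested traffic transcripts, 1 point each, in rows by class; the vertical tick is the class median, and colour gives the limma call. ESCRT-III subunits all lie to the right of 0 with a median of 0.52, while the 25 Rab GTPases spread from -1.30 to 1.83.

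The largest called changes with groups that did not overlap fell on members with few reads and on a few well-counted ones. RAB39B (NM_171998, chrX:155258235-155264491 in GRCh38, minus strand), a Rab of neurons in which mutations cause intellectual disability, had 40.9, 40.3 and 33.8 normalized counts in scrambled libraries and 116, 162 and 140.3 in knockdown libraries. Every knockdown library was above every scrambled one (log2 change 1.83, SE 0.19, limma adjusted p = 5.64e-06). RAB40A, which joins a Rab fold to a SOCS box that binds a ubiquitin ligase, had 14, 10 and 11 reads in scrambled libraries and 33, 32 and 32 in knockdown libraries (log2 change 1.53, SE 0.29, limma adjusted p = 8.12e-04). It has a near-identical relative, RAB40AL, and its value is uncertain where reads were shared. SEC22B, a SNARE of the path between endoplasmic reticulum and Golgi, stood on many more reads, with 1628, 1546 and 1729 normalized counts in scrambled libraries and 3566, 3468 and 3326 in knockdown libraries (log2 change 1.08, SE 0.073, limma adjusted p = 1.69e-07); it too has pseudogene copies. TBC1D13 (1.07, adjusted p = 0.00231), a GTPase-activating protein, AP5M1 (1.08, adjusted p = 5.08e-04), the medium subunit of the AP-5 adaptor, and the antisense RNA EXOC3-AS1 (1.47, adjusted p = 3.22e-04) also rose. RAB3IL1 (1.42, adjusted p = 0.0331), an exchange factor, and the divergent transcript VPS33B-DT (1.16, adjusted p = 0.0242) rose on few reads, and RAB3IL1 lost its call without scrambled replicate 1 (0.0549), scrambled replicate 2 (0.109), knockdown replicate 2 (0.119) or knockdown replicate 3 (0.0587). Its log2 change was 0.94 without scrambled replicate 2. VPS33B-DT lost its call without knockdown replicate 2 (0.0662) or knockdown replicate 3 (0.104).

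Among the falls, COPG2IT1, a non-coding RNA read from within the COPG2 region, went from 18, 34 and 35 reads in the scrambled to 1, 7 and 4 in the knockdown libraries (log2 change -2.62, SE 0.57, limma adjusted p = 0.00198). TBC1D26 went from 14, 24 and 14 to 2, 5 and 1 reads (log2 change -2.32, SE 0.57, limma adjusted p = 0.00447). TBC1D26 belongs to a group of recent duplicates, and its value is uncertain where reads were shared. EXOC3L2, an exocyst-like gene, fell from 24, 19 and 12 to 7, 3 and 5 reads (log2 change -1.59, SE 0.45, limma adjusted p = 0.00974). These 3 rest on at most 35 reads in any library. SEC24D, RAB8B, RAB31 and AP1S1 were well counted. SEC24D, a cargo-binding subunit of the COPII coat, had 2857, 2938 and 2886 normalized counts in scrambled libraries and 1218, 1143 and 1114 in knockdown libraries (log2 change -1.32, SE 0.071, limma adjusted p = 3.16e-08). RAB8B had 1639.95, 1574 and 1716 against 614, 769 and 629 (log2 change -1.30, SE 0.095, limma adjusted p = 3.23e-07). RAB31, a Rab of the trans-Golgi and endosomes, had 505, 537 and 571 against 258, 200.1 and 219.7 (log2 change -1.25, SE 0.12, limma adjusted p = 2.07e-06). AP1S1, the small subunit of the AP-1 clathrin adaptor, had 1162, 1193 and 1241 against 576, 495 and 554 (log2 change -1.15, SE 0.087, limma adjusted p = 3.92e-07). In each of these 4, every knockdown library lay below every scrambled one. RAB11FIP3, a RAB11 effector (-1.32, adjusted p = 0.0183), fell on few reads, 16, 28 and 24 against 6, 10 and 7, and lost its call without scrambled replicate 2 (0.0873), scrambled replicate 3 (0.0595) or knockdown replicate 1 (0.0538).

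**Figure D2:**
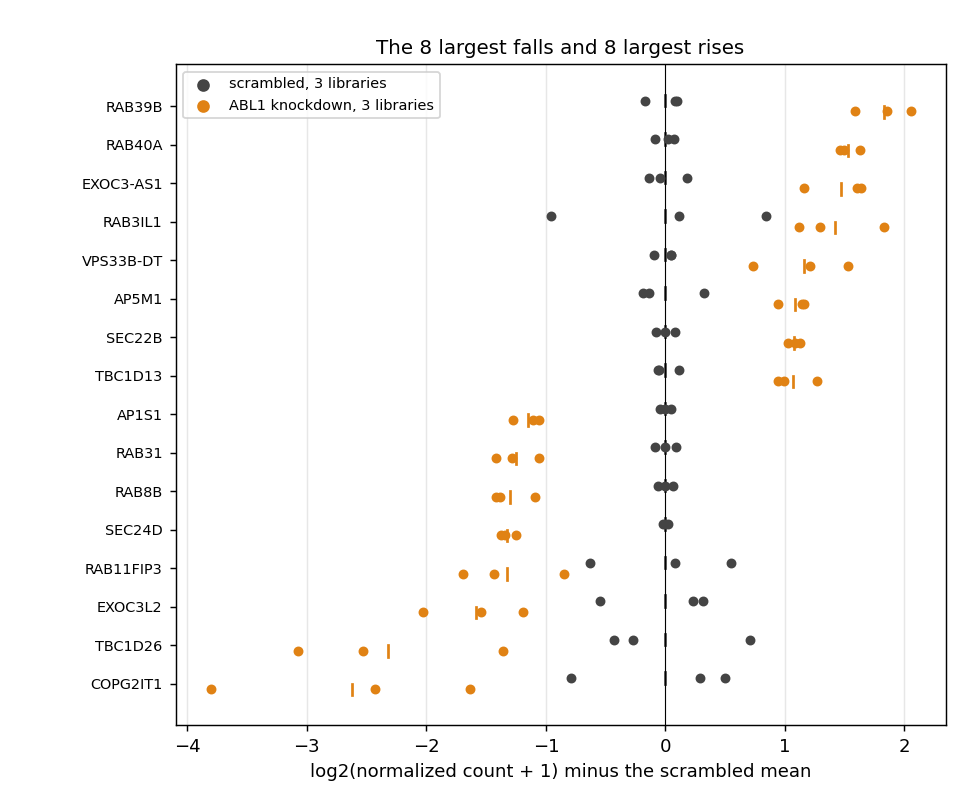
The 8 largest called rises and 8 largest called falls with non-overlapping groups; each point is 1 library on the log2(normalized count + 1) scale, set relative to the scrambled mean of that gene, and ticks are group means. SEC22B, AP1S1, RAB8B and SEC24D have tight groups, whereas RAB3IL1, TBC1D26 and COPG2IT1, with few reads, spread widely within a group.

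The bases before the start site are shown for the 3 largest rises and the 3 largest falls where RefSeq (GRCh38.p14) promoters held them, which was so for RAB40A, COPG2IT1, TBC1D26 and EXOC3L2. Each run has the 250 bases before the start, 5′ to 3′ on the strand of the gene, and capitals mark matches to the motifs searched below. They lie at chrX:103519490-103519739 (minus strand), chr7:130543203-130543452 (plus strand), chr17:15732027-15732276 (plus strand) and chr19:45245408-45245657 (minus strand).
RAB40A: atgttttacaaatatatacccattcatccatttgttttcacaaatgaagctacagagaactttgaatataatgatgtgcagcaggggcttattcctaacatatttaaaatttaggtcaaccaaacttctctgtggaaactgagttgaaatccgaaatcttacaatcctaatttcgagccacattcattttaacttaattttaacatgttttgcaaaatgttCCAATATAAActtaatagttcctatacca
COPG2IT1: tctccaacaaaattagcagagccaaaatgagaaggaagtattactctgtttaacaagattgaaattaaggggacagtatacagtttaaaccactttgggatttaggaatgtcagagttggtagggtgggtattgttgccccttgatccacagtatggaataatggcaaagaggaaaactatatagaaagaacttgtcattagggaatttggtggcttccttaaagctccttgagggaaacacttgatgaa
TBC1D26: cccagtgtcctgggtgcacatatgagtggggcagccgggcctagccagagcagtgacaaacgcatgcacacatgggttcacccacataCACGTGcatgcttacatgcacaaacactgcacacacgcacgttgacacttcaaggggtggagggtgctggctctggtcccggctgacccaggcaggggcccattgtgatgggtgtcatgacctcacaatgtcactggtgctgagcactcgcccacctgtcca
EXOC3L2: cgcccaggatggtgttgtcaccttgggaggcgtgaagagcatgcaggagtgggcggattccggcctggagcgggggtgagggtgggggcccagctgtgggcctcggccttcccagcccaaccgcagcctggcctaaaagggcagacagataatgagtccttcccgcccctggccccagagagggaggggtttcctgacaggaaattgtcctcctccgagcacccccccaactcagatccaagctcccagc
The RAB40A stretch is rich in A and T and holds a CCAAT box that runs into a TATA box close to the start, TBC1D26 holds 1 E-box, and in the other 2 none of the motifs was found.

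Motifs were counted in the same 250 bases, on both strands, for the 113 of 143 tested coding member genes that had a promoter in that table. The E-box CACGTG, a site read by the MYC, USF and TFEB families, was in 16.8% of member promoters, in 9.13% of those of all 5837 tested coding genes and in 6.34% of all promoters in the table. Within the members it was in 3 of 32 that rose, 4 of 31 that fell and 12 of 50 that were not called. CLEAR, the palindrome of lysosomal genes that contains the E-box and is in capitals in the first 3 windows below, was in 3 member promoters (2.65%, against 0.754% of tested coding genes and 0.308% of all). They are TRAPPC2L, which fell, and CHMP4A and RAB3GAP2, which were not called, and they are shown because a motif this long is rare. TGACGTCA, the cAMP response element, was in 5 (4.42%, against 2.66% and 1.65%), of which CHMP1B, STX12 and VPS37B rose, RAB11FIP3 fell and SNX5 was not called. The windows have up to 15 bases on either side of the motif, which is in capitals, and show every member promoter with either motif; these 2 motifs were picked for printing after the values were seen.
TRAPPC2L, chr16:88857099-88857126: cgtgaccagcggcggGTCACGTGACgcg
CHMP4A, chr14:24213580-24213619: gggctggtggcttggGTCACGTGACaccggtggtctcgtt
RAB3GAP2, chr1:220272530-220272569: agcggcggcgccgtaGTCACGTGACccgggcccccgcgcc
CHMP1B, chr18:11851352-11851389: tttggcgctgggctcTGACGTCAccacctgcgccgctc
STX12, chr1:27773010-27773047: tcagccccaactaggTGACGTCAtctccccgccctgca
VPS37B, chr12:122896305-122896342: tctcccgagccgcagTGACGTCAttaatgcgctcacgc
RAB11FIP3, chr16:425562-425599: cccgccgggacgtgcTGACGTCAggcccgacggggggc
SNX5, chr20:17968841-17968878: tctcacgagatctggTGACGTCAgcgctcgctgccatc
The ER stress element, known as ERSE, was in 0 member promoters (0.154% of tested coding genes). TGACGTGG, the core read by XBP1 and ATF6, was in 4 (3.54% against 0.754%). Of these SEC16B rose, and ARFGEF3, SEC24A and SEC62 were not called. TATAAA was in 1 (0.885% against 6.32%), the RAB40A promoter above. The short CCAAT box, which the ER stress element contains, was in 12 of 32 risen, 4 of 31 fallen and 10 of 50 uncalled members, and in 35.3% of tested coding genes. The median GC content was 66.2% in risen, 69.6% in fallen and 67.2% in uncalled members, and 65.2% in all tested coding genes. A match is a description of these letters, not a bound site.

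The class counts from here on stand beside 24.5% of all tested rows that rose and 27.4% that fell, and no class was tested as a set. Of 25 tested Rab GTPases 9 fell and 6 rose, with a median log2 change of -0.081. With equal totals 6 fell and 11 rose, with a median of 0.092. With quantile normalization it was 8 and 8, with a median of 0.032. RAB8A, which acts with RAB8B and RAB10 in exocytosis and membrane recycling, had 1176, 1188 and 1167 normalized counts in scrambled libraries and 869, 842 and 845 in knockdown libraries (log2 change -0.47, SE 0.074, limma adjusted p = 2.05e-04). RAB10 had 2088, 1774 and 1995 against 1299, 1139 and 1326 (log2 change -0.64, SE 0.088, limma adjusted p = 6.70e-05). With RAB8B, all 3 of these neighbours were lower in each knockdown library than in any scrambled one. RAB3B (-0.45, adjusted p = 3.90e-04) and RAB3D (-0.38, adjusted p = 0.00402), of the family that prepares secretory granules for release, fell as well, RAB3D to -0.21 (adjusted p = 0.0789) with equal totals. RAB3A had a log2 change of -0.42 and did not pass (adjusted p = 0.0608). RAB40B, the sister of RAB40A, fell from 166 ± 29.2 to 95.8 ± 4.91 (log2 change -0.77, SE 0.16, limma adjusted p = 0.001395). The calls of RAB6B, a Golgi Rab (-0.32, adjusted p = 0.0343), and RAB36 (-0.64, adjusted p = 0.0325) were weak: RAB6B lost its call without scrambled replicate 3 (0.137), knockdown replicate 1 (0.0738) or knockdown replicate 2 (0.0987) and RAB36 without scrambled replicate 1 (0.0997), scrambled replicate 2 (0.102), knockdown replicate 2 (0.0783) or knockdown replicate 3 (0.0738).

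The rises among Rabs were RAB39B, RAB40A, RAB33B, RAB1A, RAB32 and RAB7A. RAB33B, a Golgi Rab that binds the autophagy protein ATG16L1, had 348, 341 and 345 normalized counts in scrambled libraries and 663, 665 and 619 in knockdown libraries (log2 change 0.91, SE 0.089, limma adjusted p = 3.30e-06). RAB32, which serves mitochondria and lysosome-related organelles, had 826, 739 and 824 against 1225, 1159 and 1214 (log2 change 0.59, SE 0.081, limma adjusted p = 6.09e-05). RAB7A, which governs fusion of late endosomes with lysosomes, had 5443, 5743 and 5391 against 6742, 6943 and 6435, a smaller but separate rise (log2 change 0.28, SE 0.068, limma adjusted p = 0.00404). RAB1A rose with overlapping groups (36.7, 52.7 and 67.6 against 57.7, 109.6 and 108, 0.79, adjusted p = 0.0327), and lost its call without scrambled replicate 1 (0.125), scrambled replicate 2 (0.0527), knockdown replicate 2 (0.118) or knockdown replicate 3 (0.109); its row is 1 of 2 RefSeq transcripts of the gene. RAB1B, the other Rab of the step from endoplasmic reticulum to Golgi, had the most reads of all members, 18342, 17134 and 17485 against 17858, 15610.1 and 17988, and did not pass (log2 change -0.044, adjusted p = 0.661), but under quantile normalization it was called higher (0.30, adjusted p = 0.00107). Per kilobase of transcript RAB1B stood at 8796 normalized counts in the scrambled libraries, RAB8B at 332 and RAB39B at 10.9. RAB11B, RAB14, RAB21 and RAB22A, of the recycling and early endosomal routes, had log2 changes of -0.12, 0.13, -0.081 and 0.099 and did not pass (adjusted p = 0.244, 0.163, 0.396 and 0.342).

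**Figure D3:**
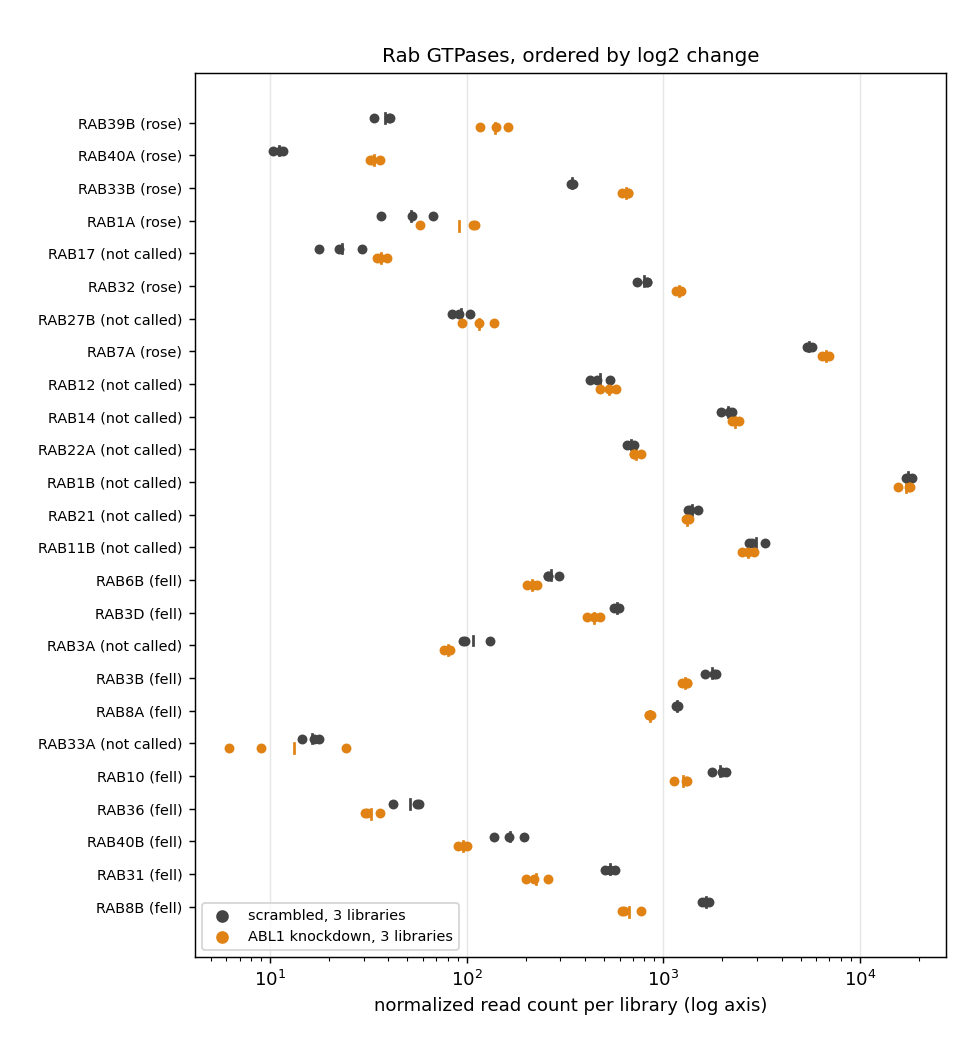
Normalized read counts (log axis) of the 25 tested Rab GTPases, ordered by log2 change from the largest fall at the bottom to the largest rise at the top; points are libraries, ticks group means, and brackets give the limma call. RAB8B, RAB31 and RAB10 separate to the left in the knockdown libraries and RAB33B, RAB32 and RAB39B to the right, while the abundant RAB1B overlaps.

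Proteins that switch Rabs off or carry out their orders were split as well. Of 11 tested TBC-domain proteins 4 rose and 4 fell. TBC1D25, which inactivates RAB33B, had 1146, 1002 and 982 normalized counts in scrambled libraries and 768, 651 and 718 in knockdown libraries (log2 change -0.55, SE 0.094, limma adjusted p = 3.46e-04), while RAB33B itself rose. TBC1D16, which acts on RAB4A, fell from 472 ± 30.7 to 256 ± 49.9 (log2 change -0.90, SE 0.14, limma adjusted p = 1.44e-04), and TBC1D20, which acts on RAB1, from 609.6 ± 48.8 to 438 ± 56.8 (log2 change -0.48, SE 0.11, limma adjusted p = 0.00305). TBC1D9 rose from 932 ± 71.1 to 1456 ± 44.4 (log2 change 0.65, SE 0.081, limma adjusted p = 2.99e-05). TBC1D10B (0.24, adjusted p = 0.0335) lost its rise without scrambled replicate 2 (0.120), scrambled replicate 3 (0.052995), knockdown replicate 1 (0.0975) or knockdown replicate 3 (0.119), and TBC1D12 (0.30, adjusted p = 0.0485) without scrambled replicate 2 (0.194), scrambled replicate 3 (0.0905), knockdown replicate 1 (0.164), knockdown replicate 2 (0.0611) or knockdown replicate 3 (0.0628). The RAB5 exchange factor RIN3 fell by 0.26 on the log2 scale (adjusted p = 0.0347), a call lost without scrambled replicate 1 (0.0768), scrambled replicate 2 (0.0843), scrambled replicate 3 (0.0596), knockdown replicate 1 (0.122), knockdown replicate 2 (0.0571) or knockdown replicate 3 (0.0523).

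Of 8 tested Rab partners 3 fell and 2 rose, and with equal totals 3 rose and 2 fell. The RAB11 effectors, which guide recycling endosomes, did not move together: RAB11FIP2 had 170.1, 169 and 177 normalized counts in scrambled libraries and 103, 92.7 and 78.4 in knockdown libraries (log2 change -0.92, SE 0.15, limma adjusted p = 2.45e-04). RAB11FIP5 had 2025, 1819 and 1722 against 2615, 2253 and 2646 (log2 change 0.43, SE 0.088, limma adjusted p = 0.00126), and RAB11FIP1 did not pass (-0.19, adjusted p = 0.359). RAB11FIP4 had 2 rows. The tested one (NM_001303542) had 14, 4 and 21 reads in scrambled libraries and 12, 29 and 32 in knockdown libraries and did not pass (1.12, adjusted p = 0.0913); the other (NM_032932) was below the minimum, with 17, 9 and 12 and 2, 3 and 9. RABIF, a chaperone of RAB8 and RAB10, fell (-0.39, adjusted p = 0.0475), a call lost without scrambled replicate 1 (0.136), scrambled replicate 2 (0.109), knockdown replicate 1 (0.154) or knockdown replicate 2 (0.089003).

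The ARF GTPases, which recruit coats, were divided by member. ARF5 had 3202, 2904 and 2802 normalized counts in scrambled libraries and 1689, 1567 and 1679 in knockdown libraries (log2 change -0.85, SE 0.076, limma adjusted p = 1.63e-06). ARF6, which works at the plasma membrane and in endocytic recycling, had 4437, 3396 and 4119.9 against 2777, 2705 and 2933 (log2 change -0.50, SE 0.093, limma adjusted p = 7.03e-04). ARF4, the closest relative of ARF5, went the other way, with 2743, 3023 and 3218 against 3965, 4083 and 3735 (log2 change 0.39, SE 0.078, limma adjusted p = 0.00101), and ARF3 did not pass (-0.085, adjusted p = 0.339). The ARF1 transcript analysed here had under 10 normalized counts per library and was not tested. Of 4 ARF regulators ARFGEF2, an exchange factor of the trans-Golgi, rose from 2892 ± 109 to 3537 ± 34.9 (log2 change 0.29, SE 0.067, limma adjusted p = 0.00293), and ARFGEF1 (-0.033, adjusted p = 0.758), ARFGEF3 (-0.15, adjusted p = 0.265) and ARFGAP1 (-0.24, adjusted p = 0.189) did not pass.

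At the entry to the secretory route, 3 of 4 tested genes of the translocon rose, where 24.5% of all tested rows did. SEC61A1, the channel itself, had 11926, 11882 and 11153 normalized counts in scrambled libraries and 16332, 15456 and 15658 in knockdown libraries (log2 change 0.44, SE 0.068, limma adjusted p = 1.58e-04). SEC61B, its small partner, had 2414, 2552 and 2418 against 3173, 3535 and 3195 (log2 change 0.42, SE 0.072, limma adjusted p = 3.62e-04). SEC63, which helps substrates through the channel, rose from 2767 ± 176 to 3416 ± 259 (log2 change 0.30, SE 0.0802, limma adjusted p = 0.00694), but did not pass without the mean-variance trend (adjusted p = 0.0515). SEC62, the partner of SEC63, did not pass (-0.13, adjusted p = 0.200), but the class count became 3 rises and 1 fall without knockdown replicate 2. The next step, COPII, was mixed, with 3 rises and 2 falls among 12 tested rows (median log2 change 0.17), and with equal totals 6 rose and 2 fell (median 0.34). Beside the fall of SEC24D and the rise of SEC22B, SEC16B, which organises the exit sites, rose from 436 ± 50.4 to 700.5 ± 31.6 (log2 change 0.69, SE 0.10, limma adjusted p = 1.21e-04), and SEC22C fell from 305 ± 31.4 to 199.97 ± 21.7 (log2 change -0.61, SE 0.13, limma adjusted p = 0.00151). SEC13, of the outer coat, rose on its more abundant row (0.66, adjusted p = 0.0136), a call lost without scrambled replicate 2 (0.0507). SEC23A, the partner of the SEC24 proteins in the inner coat, had 6757, 6874 and 7616 against 7943, 8276 and 7300.02 and did not pass (0.15, adjusted p = 0.126), but rose under quantile normalization (0.36, adjusted p = 0.00424) and with equal totals (0.32, adjusted p = 0.00409). The main row of SEC24A did not pass (0.13, adjusted p = 0.302).

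Further along, the TMED proteins, which gather cargo into COPI and COPII vesicles, had 3 rises among 7 tested, and 5 with equal totals or quantile normalization. TMED7 had 885, 929 and 1099 normalized counts in scrambled libraries and 1441, 1532 and 1292 in knockdown libraries (log2 change 0.55, SE 0.098, limma adjusted p = 4.74e-04). TMED9 had 11593, 10199 and 10175 against 13035, 12420.5 and 12461 (log2 change 0.25, SE 0.074, limma adjusted p = 0.0133), a call lost without scrambled replicate 3 (0.0645) or knockdown replicate 1 (0.0575). TMED1 rose on few reads, from 23.3, 24.7 and 47.9 to 47.9, 72.3 and 67.1 (1.0002, adjusted p = 0.0125), where the highest scrambled and the lowest knockdown library all but met without overlapping. TMED10 (0.16, adjusted p = 0.09098) and TMED2 (0.0796, adjusted p = 0.362), partners of TMED9 in 1 complex, did not pass. In the COPI coat COPG1 fell by 0.20 on the log2 scale (adjusted p = 0.0339), lost its call without scrambled replicate 2 (0.129), scrambled replicate 3 (0.0675), knockdown replicate 2 (0.0601) or knockdown replicate 3 (0.105), and stood at -0.0199 with quantile normalization; COPG2 (0.38, adjusted p = 0.0703) and COPZ2 (-0.31, adjusted p = 0.217) did not pass, and with equal totals COPG2 was the called subunit, as a rise (0.55, adjusted p = 0.0145). Of 5 TRAPP subunits, which tether vesicles at the Golgi, 2 fell, and with equal totals 1 rose and 1 fell. TRAPPC2L fell from 556 ± 37.1 to 437 ± 29.8 (log2 change -0.35, SE 0.097, limma adjusted p = 0.00918), but with equal totals its log2 change was -0.17 (adjusted p = 0.151). TRAPPC12 fell from 825, 792 and 880.1 to 538, 371 and 732 (log2 change -0.66, SE 0.18, limma adjusted p = 0.00865), with the knockdown libraries far apart from each other. Its log2 change was -0.41 without knockdown replicate 2 and -0.90 without knockdown replicate 3, and it did not pass without the trend (adjusted p = 0.0714).

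Among the SNARE proteins, which fuse membranes, 4 of 6 tested syntaxins rose, where 24.5% of all tested rows did. STX12, of recycling endosomes, had 496, 549 and 581 normalized counts in scrambled libraries and 940.02, 899 and 868 in knockdown libraries (log2 change 0.74, SE 0.089, limma adjusted p = 2.18e-05). STX7, of late endosomes, had 799.5, 773 and 807 against 1237, 1481 and 1191 (log2 change 0.71, SE 0.092, limma adjusted p = 3.90e-05). STX18, of the endoplasmic reticulum, had 762, 771 and 615 against 928, 968 and 947 (log2 change 0.41, SE 0.098, limma adjusted p = 0.00355). STX17, which joins autophagosomes to lysosomes, had 647, 683 and 719 against 835, 908 and 815 (log2 change 0.32, SE 0.086, limma adjusted p = 0.00738). These 4 rose under each scaling, none of which moved the median of all rows downward, and whichever library was left out. Of 4 VAMP proteins VAMP5 fell from 635 ± 43.1 to 489 ± 43.4 (log2 change -0.38, SE 0.099, limma adjusted p = 0.00646), though not with equal totals (log2 change -0.20, adjusted p = 0.0862). VAMP8, which works with STX7 and STX17 at the lysosome, had 1187, 1119 and 1195 against 1255, 1301 and 1180.2 and did not pass (0.093, adjusted p = 0.332), nor did VAMP3 (0.20, adjusted p = 0.0742), VAMP2 (-0.056, adjusted p = 0.673) or SNAP29 (-0.13, adjusted p = 0.181); with equal totals VAMP3 and VAMP8 rose. SNAP47 fell by 0.28 on the log2 scale (adjusted p = 0.0221), a call lost without scrambled replicate 1 (0.0786), knockdown replicate 2 (0.0728) or knockdown replicate 3 (0.0589).

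Of 6 tested adaptor subunits AP1S1 fell and AP5M1 rose, and with equal totals or quantile normalization AP5B1 and AP5Z1 also rose. With the authors' scale, AP3S1 (-0.072, adjusted p = 0.585), AP4M1 (-0.16, adjusted p = 0.310), AP5B1 (0.17, adjusted p = 0.153) and AP5Z1 (0.16, adjusted p = 0.146) did not pass. VPS26B, an arm of the retromer complex that retrieves receptors from endosomes, had 1353, 1223 and 1208 normalized counts in scrambled libraries and 560.5, 582 and 581 in knockdown libraries (log2 change -1.13, SE 0.082, limma adjusted p = 2.87e-07). The core subunit VPS35 moved the other way, with 1531, 1749.6 and 1809 against 2077, 2310.3 and 2044 (log2 change 0.34, SE 0.085, limma adjusted p = 0.00508). VPS26C, a relative that belongs to the retriever complex, rose from 519 ± 32.4 to 643 ± 40.9 (log2 change 0.31, SE 0.093, limma adjusted p = 0.0143), a call lost without scrambled replicate 1 (0.0549). VPS26A was not analysed here, and VPS29 and VPS35L had rows under the minimum.

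Of 12 sorting nexins, which bind endosomal lipids, 4 rose and 2 fell, and with equal totals 5 rose and neither fall passed. SNX33, which shapes membranes and binds actin regulators, had 776, 815 and 722 normalized counts in scrambled libraries and 1339, 1192 and 1470.1 in knockdown libraries (log2 change 0.79, SE 0.093, limma adjusted p = 1.74e-05). SNX29 rose from 168 ± 14.6 to 265 ± 21.9 (log2 change 0.65, SE 0.12, limma adjusted p = 7.75e-04) and SNX30 from 1203 ± 13.6 to 1614 ± 109.6 (log2 change 0.42, SE 0.077, limma adjusted p = 5.67e-04). SNX8 also rose (0.30, adjusted p = 0.0156), a call lost without scrambled replicate 3 (0.06698), knockdown replicate 1 (0.0764) or knockdown replicate 3 (0.0551). SNX24 (-0.54, adjusted p = 0.0141) and SNX32 (-0.65, adjusted p = 0.0285) fell, and lost their calls without scrambled replicate 3 (0.0682) and, for SNX32, without scrambled replicate 1 (0.117), scrambled replicate 3 (0.0669), knockdown replicate 2 (0.0629) or knockdown replicate 3 (0.0748); with equal totals neither passed. SNX27 (-0.17, adjusted p = 0.0866), the link of retromer to many receptors, and SNX9 (-0.037, adjusted p = 0.708), which helps clathrin vesicles pinch off, did not pass. The highest log2 change of any member, 1.94 for SNX5, came from 8, 0 and 14 reads in scrambled libraries and 12, 15 and 25 in knockdown libraries and did not pass (adjusted p = 0.0564). SNX5 passed as a rise with a pseudocount of 5 (limma adjusted p = 0.0417), equal totals (0.0398) or median-of-ratios scaling (0.0484). So it did with voom weights (0.0410), with the replicate number as a block (0.00562) or without scrambled replicate 3 (0.0163).

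The ESCRT-III subunits, which cut membrane necks, rose in 4 of 6 cases, where 24.5% of all tested rows rose. CHMP4B, the main filament subunit, had 2941, 2883 and 2889.8 normalized counts in scrambled libraries and 3516, 3495 and 3481 in knockdown libraries (log2 change 0.27, SE 0.065, limma adjusted p = 0.00402). CHMP1B had 1686, 1718 and 1714 against 2295, 2412 and 2404 (log2 change 0.47, SE 0.068, limma adjusted p = 9.38e-05). CHMP6, which starts the filament, had 383, 375 and 377 against 589, 502 and 594 (log2 change 0.56, SE 0.098, limma adjusted p = 4.02e-04). CHMP4C, which also acts at the end of cell division, had 143, 167 and 146 against 226, 251 and 247 (log2 change 0.66, SE 0.12, limma adjusted p = 7.03e-04). Each of the 4 had knockdown libraries above every scrambled library and kept its call in every alternative in which it was fitted. No scaling among these alternatives moved the median of all rows downward. CHMP4A (0.094, adjusted p = 0.428) and CHMP2A, on a row with few reads (0.62, adjusted p = 0.148), did not pass. The class median of 0.52 compares with 0.00181 over all rows, and lay between 0.40 and 0.69 over the alternatives.

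The upstream ESCRT genes and the ATPase that takes the filament apart were mixed, with 2 rises and 3 falls among 6 (median log2 change -0.13). With equal totals 3 rose and 1 fell (median 0.047), and 1 rose and 2 fell without scrambled replicate 2, scrambled replicate 3, knockdown replicate 1 or knockdown replicate 3. VPS37B, an ESCRT-I subunit, had 495, 462 and 429 normalized counts in scrambled libraries and 639, 547 and 653 in knockdown libraries (log2 change 0.41, SE 0.10, limma adjusted p = 0.00497). Its relative VPS37D had 198, 124 and 180.1 against 96.8, 79.1 and 102 (log2 change -0.83, SE 0.19, limma adjusted p = 0.00271). VPS25, of ESCRT-II, fell from 1338 ± 114 to 1032 ± 94.9 (log2 change -0.37, SE 0.093, limma adjusted p = 0.00487), but with equal totals it did not pass (log2 change -0.20, adjusted p = 0.0798). The ATPases VPS4A (0.24, adjusted p = 0.0232) and VPS4B (-0.34, adjusted p = 0.0265) were called in opposite directions, and both calls were weak: VPS4A lost its call without scrambled replicate 2 (0.0549), scrambled replicate 3 (0.107), knockdown replicate 1 (0.0773) or knockdown replicate 3 (0.0732), and VPS4B without scrambled replicate 2 (0.0723), scrambled replicate 3 (0.0705), knockdown replicate 1 (0.133) or knockdown replicate 3 (0.0566). Of the tethers, VPS33A, shared by the HOPS and CORVET complexes of late and early endosomes, rose from 578 ± 54.997 to 779.8 ± 16.97 (log2 change 0.44, SE 0.091, limma adjusted p = 0.00158), and VPS53 of the GARP complex from 745 ± 18.2 to 899 ± 36.03 (log2 change 0.27, SE 0.0795, limma adjusted p = 0.0122), while VPS16 (0.47, adjusted p = 0.0514) and VPS18 (0.17, adjusted p = 0.224) did not pass. With equal totals the 3 tested HOPS and CORVET genes all rose, where 1 did with the authors' scale. VPS16 also passed with median-of-ratios scaling (limma adjusted p = 0.0454) and without the mean-variance trend (0.0310). VPS9D1 rose from 299 ± 8.39 to 459.6 ± 35.8 (log2 change 0.61, SE 0.10, limma adjusted p = 2.56e-04). Of 8 exocyst and exocyst-like genes 1 rose and 2 fell, and with equal totals 4 rose and 1 fell. EXOC4 rose with overlapping groups (0.28, adjusted p = 0.03197), a call lost without scrambled replicate 1 (0.0974), scrambled replicate 3 (0.136), knockdown replicate 1 (0.102) or knockdown replicate 2 (0.0874). EXOC5 fell (-0.23, adjusted p = 0.04002), a call lost without scrambled replicate 1 (0.0817), scrambled replicate 3 (0.177), knockdown replicate 1 (0.0891), knockdown replicate 2 (0.057999) or knockdown replicate 3 (0.0954). EXOC3 (0.10, adjusted p = 0.334), EXOC6B (0.23, adjusted p = 0.0679) and EXOC8 (-0.014, adjusted p = 0.920) did not pass.

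Of 23 pairs of members with symbols that differ only in the last letter or digit and were called in opposite directions, 18 differed in a digit, which need not mark close relatives. The 5 that differed in a letter were RAB40A and RAB40B (log2 changes 1.53 and -0.77), SEC22B and SEC22C (1.08 and -0.61), VPS26C and VPS26B (0.31 and -1.13), VPS37B and VPS37D (0.41 and -0.83), and VPS4A and VPS4B (0.24 and -0.34), to which ARF4 adds ARF5 and ARF6 (0.39, -0.85 and -0.50). In the first 4 pairs and in the ARF family the gap was 1.23 or more between the risen member and the relative with the larger fall. The difference within a pair was not tested. Pairs called in the same direction were not counted, so the 23 pairs give no share. They are no sign that relatives part more often than other rows, of which 24.5% rose and 27.4% fell. Some relatives were called in the same direction: RAB8A and RAB8B both fell, as did RAB3B and RAB3D, and CHMP4B and CHMP4C both rose.

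**Figure D4:**
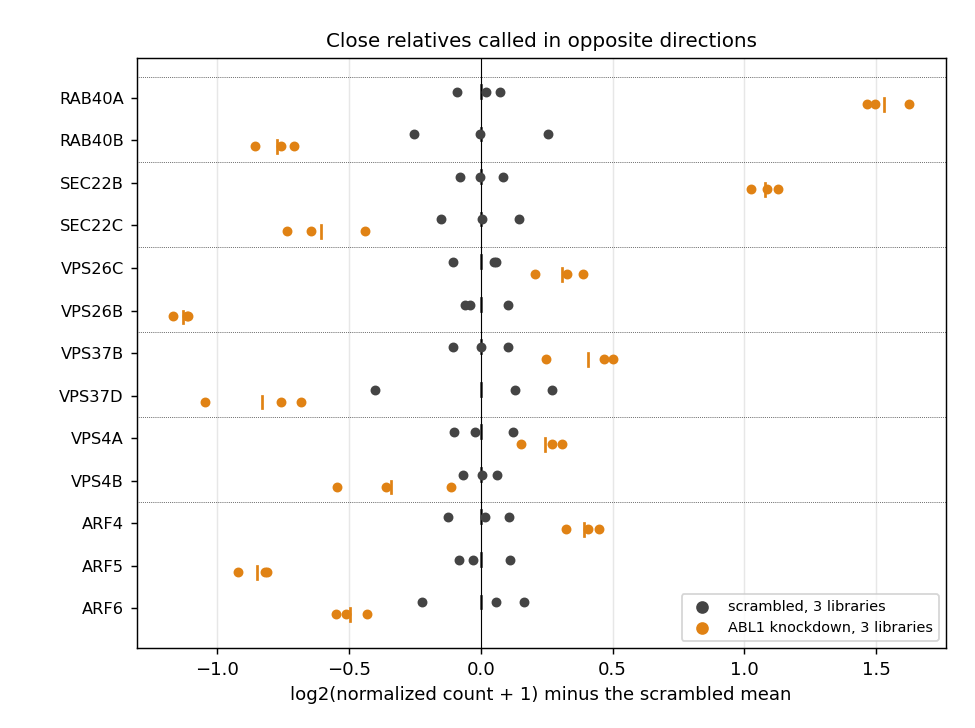
Close relatives that were called in opposite directions; points are libraries on the log2(normalized count + 1) scale relative to the scrambled mean of each gene, ticks are group means, and dotted lines part the families. The gap is widest for RAB40A and RAB40B (2.30) and narrowest among the pairs for VPS4A and VPS4B (0.58).

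Of 11 tested non-coding members 3 rose and 2 fell. EXOC3-AS1 had 24, 21 and 20 reads in scrambled libraries and 68, 42 and 63 in knockdown libraries, while EXOC3 itself did not pass. RAB30-AS1 rose from 87.1 ± 6.58 to 141 ± 11.4 normalized counts (log2 change 0.69, SE 0.15, limma adjusted p = 0.00202), and SNAP25-AS1 fell (-0.82, adjusted p = 0.0182), a call lost without scrambled replicate 2 (0.0924) or knockdown replicate 1 (0.05595). Exons of 60 of the 150 tested members found in GENCODE 29 overlap a gene on the opposite strand and those of 22 overlap another gene on the same strand. Among them AP5M1 and EXOC5 overlap each other, VPS4A overlaps COG8, VPS26B NCAPD3, SEC61A1 RUVBL1 and SNX33 IMP3. Use of strand in the counting was not stated in those sources, and without it reads of such neighbours cannot be told apart.

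Rows of single transcripts can miss most of a gene. Members of genes with 1 RefSeq transcript had a median of 721 normalized counts (n = 90), those of genes with 2 to 4 104 (n = 52), and those of genes with 5 or more 222 (n = 30). SEC24A, VPS13A and ARFGAP1 had 2 tested rows each, and none of the 6 passed. For SEC24A the more abundant row had a log2 change of 0.13 and the other -0.73, for ARFGAP1 -0.24 and 0.48, and for VPS13A 0.013 and -0.16. The 19 members below the minimum had group means from 1.59 to 13.5 normalized counts. RAB20, with 14, 14 and 14 reads in scrambled libraries and 5, 2 and 3 in knockdown libraries, and STX6, with 8, 3 and 9 and 14, 10 and 14, were among those whose groups did not overlap. SEC14L5 was the 1 tested SEC14-like gene and did not pass (-0.66, adjusted p = 0.104).

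Traffic genes outside the symbol rule, from lists of 165 genes, gave 81 with a tested row, of which 21 rose and 12 fell, with a median log2 change of 0.098. The called share was 40.7%, below the 51.9% of all tested rows (25.9% rose and 14.8% fell, against 24.5% and 27.4%), and with equal totals 35 rose and 10 fell. Among 18 Golgi tethers and fusion factors 7 rose. YKT6, a SNARE, went from 1560.4 ± 56.1 to 2831 ± 96.4 (log2 change 0.86, adjusted p = 7.83e-07), and the tether GOLGA1 from 381 ± 25.6 to 719 ± 38.9 (0.91, adjusted p = 5.07e-06). Among 15 genes of the early endosome and its phosphoinositides 5 fell and 1 rose. APPL1, a RAB5 effector, had a log2 change of -0.62 and WASHC5, of the complex that builds actin on endosomes, -0.76 (adjusted p = 4.22e-05 and 4.76e-05). COMMD1, a partner of retriever, rose (0.38, adjusted p = 0.0252). Of 20 Rab regulators 5 rose, such as RABGAP1L (0.96) and DENND3 (0.69), and 3 fell, such as the RAB5 exchange factor RIN1 (-1.48) and DENND6A (-1.56). Of 9 endocytosis genes EHD3 (0.73), EPS15 (0.61) and AAK1 rose and EHD2 (-0.78) fell. Of 10 partners of export from the endoplasmic reticulum 3 rose, such as MIA2 (0.72) and MIA3 (0.25), and ERGIC1 (-0.54) and LMAN2 (-0.34) fell. Among 9 receptors carried by these routes CUBN, an endocytic receptor, rose from 11.3 ± 2.58 to 166 ± 19.998 (3.78, adjusted p = 9.12e-08), M6PR rose on few reads (1.34) and EGFR fell (-0.50), while LRP1 (0.15), IGF2R (-0.031) and TFR2 (-0.0032) did not pass.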

How the data were processed

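The deposited table gives 1 signal value per library and RefSeq transcript row. HISAT2 2.0.4, HTSeq 0.6.1 and build hg38 are named per the submitters' processing notes, with no role stated; annotation, strand setting and row filter were not given in the sources used here. Each squared value is a library step times reads plus 0.375, and whole reads came back within 0.05 for 100% of rows. Normalized counts are reads times the relative step. Rows with a mean of at least 10 were tested with limma 3.58.1 in R 4.3.3 (mean-variance trend) on log2(normalized count + 1), a scale that understates changes of low rows. No count model was used.

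Rows were matched to RefSeq (GRCh38.p14) by accession (172 of 175 members), and exons to GENCODE 29. Simulated data with 50 changed rows per size among 8511 gave 14%, 60%, 80% and 98% recovered at 1.25-, 1.5-, 2- and 4-fold, with 9 of 135 calls false. In that simulation few rows changed and all rows shared the same dispersion, whereas 51.9% of tested rows were called in the data. These rates therefore need not hold here. Libraries of a group differed by more than counting noise (chi-square per degree of freedom 5.89 to 10.6), so none was merged as a repeat deposit; separate cultures are not shown by this. Members, classes and lists were chosen with earlier results of these data known. Named were, per class, up to 3 calls in each direction by smallest p with non-overlapping groups (else the smallest p), the 8 largest rises and falls, the 3 rows with most reads, and relatives called in opposite directions; others were named after their values were seen. Protein sequences were not used here, and 1 member that the rule names is not reported here.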

Additional observations from a re-analysis of the deposited data

How the results depend on the processing

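Member calls were 47 rises and 38 falls, and 74 and 23 with equal totals, where companion rises went from 21 to 35; at an adjusted p under 0.01 member falls became 25. Leaving out 1 library gave 42 to 44 member rises and 29 to 32 falls, and 18 to 21 companion rises and 11 to 12 falls. Pseudocounts of 0.5 and 5, either filter, quantile and median-of-ratios scaling, voom, no trend and reads summed per gene left these counts within 1.5 times. Whether the replicate number pairs the libraries was not settled. The correlation of deviations was 0.0471 to 0.0768 for same-numbered libraries and -0.153 to 0.0886 for the others. With the replicate number as a block, 52 members rose and 41 fell, and all 85 calls were kept. Of 1276 alternative values of 76 named members, 1181 kept direction and call, 88 lost the call, 1 gained one and 6 changed sign, none of these being called with the authors' scale. VPS13A (NM_015186, -0.16) became 0.0046 with equal totals, 0.057 without scrambled replicate 3, 0.067 without knockdown replicate 1, and ranged from -0.47 to 0.067 with 1 library left out. RAB1B (-0.044) became 0.13 with equal totals, 0.30 with quantile normalization and 0.022 without knockdown replicate 2, and ranged from -0.0798 to 0.022 with 1 library left out. The cause was not tested. Of the 44 members with 10 to 100 normalized counts 40.9% were called (all rows of that range: 38.5%), and 60% of those with 1000 or more (all rows: 65.96%).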
